A study of Mus musculus with 6 samples.

Results

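The proteasome genes of the mouse midbrain were compared between RNA pulled down with tagged ribosomes and the input RNA of the same tissue. Members were all entries of the count files whose symbol begins with Psm, a letter from a to g and a number, which gave 50 of 32531 gene entries. They were 8 core alpha, 8 core beta, 3 immune beta, 6 cap ATPase and 11 cap non-ATPase genes, 4 activator genes, 7 assembly genes, the regulator Psmf1, and 2 other entries. These last were Psmc3ip, a meiotic recombination factor named after a subunit it binds, and Psme2b, a near-copy of Psme2. Libraries came from the midbrain of adult, untreated control mice of the Lhx5-EGFP/Rpl10a line DT154, which carries an EGFP-tagged ribosomal protein, Rpl10a, and is named for the gene Lhx5. All 6 libraries come from this transgenic line, and the labels do not describe the promoter or the cells that carry the tag. There were 3 libraries of RNA immunopurified with anti-EGFP antibodies (IP) and 3 titled input. A second label calls the latter unbound, and whether they hold all RNA of the homogenate or only the remainder after the pulldown is not settled by the labels. The labels do not say whether replicates were separate animals or pools, so p-values measure the spread between these libraries, which may be technical.

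The proteasome is the main protease of the cytosol and nucleus and degrades proteins tagged with ubiquitin. Its barrel-shaped core is built of alpha rings around beta rings, and 3 of the beta subunits, encoded by Psmb5, Psmb6 and Psmb7, carry the cutting sites. The cap recognises ubiquitin, unfolds the substrate with a ring of ATPases and feeds it into the core. Immune cells, and other cells exposed to interferon, can replace the cutting subunits by the products of Psmb8, Psmb9 and Psmb10 to form the immunoproteasome, which favours peptides for antigen presentation. Neurons depend on the proteasome for synaptic turnover and mainly build the constitutive form.

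Each library held 38058239 to 45841499 gene counts. Levels are given as CPM, counts relative to the library total after TMM scaling, and 3 counts equal 0.0654 to 0.0788 CPM. Lhx5, for which the line is named, stood at 50.7 ± 4.81 CPM in IP against 3.31 ± 0.963 in input (mean ± SD of 3 libraries). Of 12 pan-neuronal markers 10 were higher in IP, Syt1 was not called (-0.17) and Map2 was lower (-0.85, adjusted p 0.000464). Their sums, mostly Snap25 and Vsnl1, were 28000 to 33000 CPM in IP and 12100 to 16500 in input. Of 14 microglial markers 13 were lower in IP, with sums of 16.0 to 29.5 CPM in IP and 89.4 to 153 in input. All 10 oligodendrocyte markers were lower (sums of 337 to 499 CPM against 4370 to 5200), as were all 10 endothelial and 9 of 10 astrocyte markers (773 to 807 against 1660 to 2260). The astrocyte sums in IP were mostly Aldoc, the marker not called (0.19), with 579 to 631 CPM in IP and 414 to 629 in input. The median log2 fold change of the astrocyte markers was -3.24. Some microglial and endothelial markers passed the low-count filter through their input libraries, where they were high, so a fall was the likely call. Trem2 had 6, 3 and 0 counts in IP and 96, 91 and 48 in input. Tek had 3, 9 and 7 counts in IP and 93, 97 and 47 in input. Purkinje cell markers of the cerebellum summed to 1700 CPM in IP replicate 2 against 517 and 518 in the other IP libraries, and striatal markers to 934 CPM in input replicate 3 against 223 and 97.3 in input replicates 1 and 2. Choroid plexus markers summed to 37.7 CPM in input replicate 2 and 1390 in input replicate 3, and to 15.7 to 41.1 in IP.

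Most proteasome genes were more abundant in the RNA pulled down with tagged ribosomes than in the input. Of 49 members that passed the low-count filter, 34 rose in IP, 2 fell and 13 did not pass at an adjusted p of 0.05 (quasi-likelihood test of edgeR, Benjamini-Hochberg adjusted over 17197 genes). Among all genes tested, 26.0% were called higher and 27.9% lower. The member median was a log2 fold change of 0.55, against -0.01 for all tested genes and 0.06 for the protein-coding ones. More abundant genes tended to have higher log2 fold changes. With the mean level per length over all 6 libraries the Spearman correlation was 0.46 across 14131 tested protein-coding genes. Across the 49 members it was 0.35. The part of level in the member calls was not tested. All 3 IP libraries lay above all 3 input libraries for 41 members, a pattern found in 30.7% of tested genes, and below them for 3 members, found in 32.8%. These shares and those of all genes called are also the background for the marker counts above and the counts by role below. The changes were moderate. By edgeR's glmTreat no member was shown to exceed 2-fold (0 of 49, and 2 at an unadjusted p under 0.05, Psmb10 and Psmb8), against 2.25% of tested genes upward and 12.9% downward. Members took 0.449%, 0.457% and 0.482% of all gene counts in IP replicates 1, 2 and 3, and 0.339%, 0.349% and 0.346% in the input replicates. In bulk RNA, fewer cells of a type and less RNA per cell cannot be told apart.

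**Figure D1:**
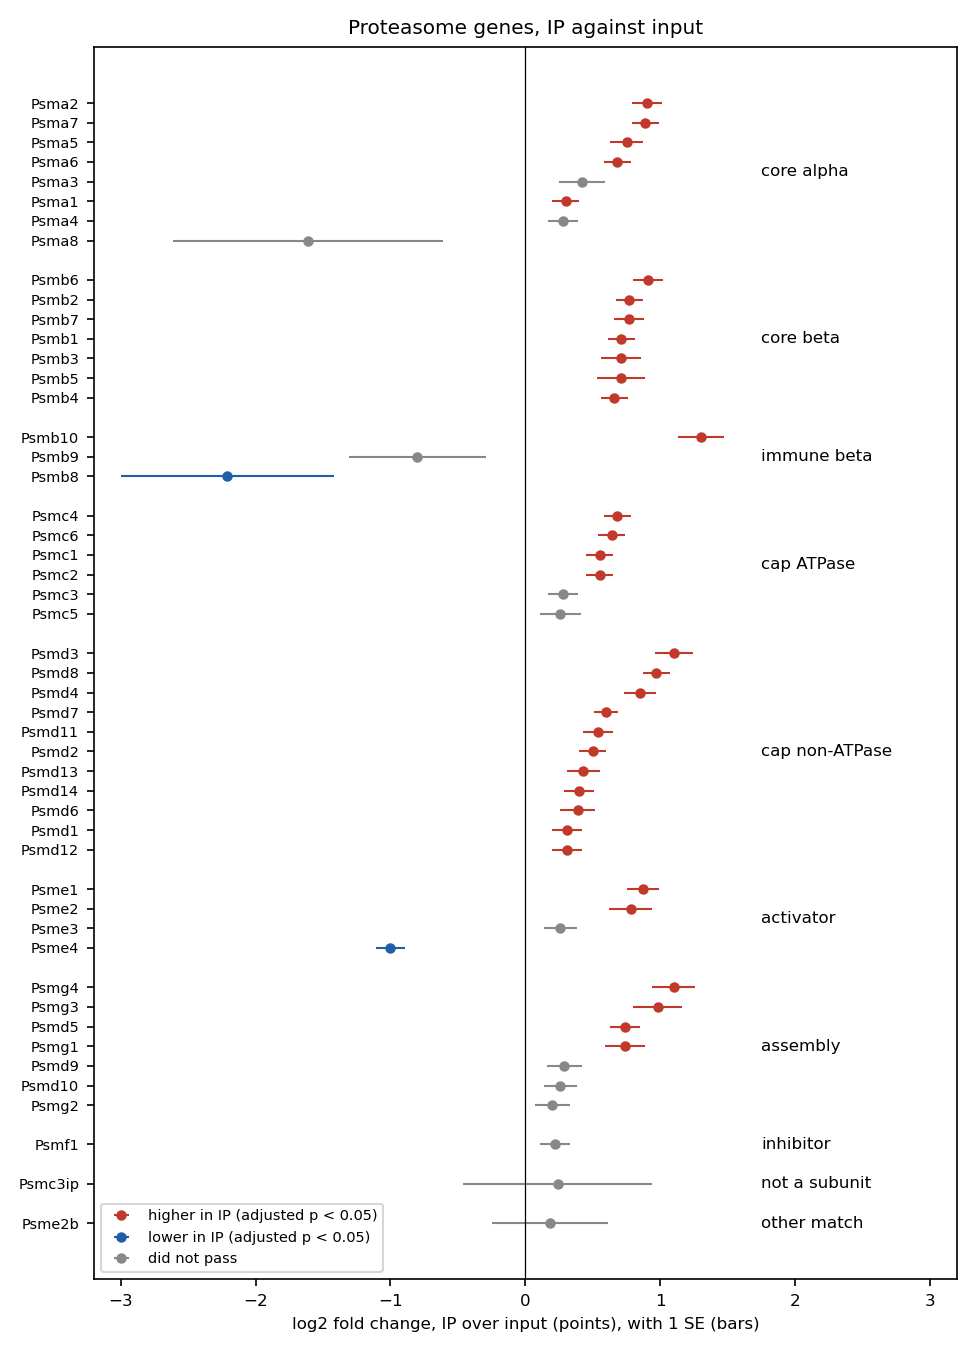
Log2 fold change of IP over input (x axis) for the 49 tested members (y axis, grouped by role), with bars of 1 SE. Red points passed as higher and blue points as lower in IP, and grey points did not pass. Apart from Psma8, the points of the constitutive core and cap lie between 0.26 and 1.10, while Psmb8 (-2.21) and Psme4 (-1.0) are the called falls.

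The alpha subunits form the outer rings of the core and gate its entrance. Of 8 alpha genes 5 rose and 3 did not pass. Psma2 was the highest of them in fold change, with 179, 187 and 217 CPM in IP replicates 1, 2 and 3 and 108, 104 and 102 in input (0.90 on the log2 scale, SE 0.11, adjusted p 0.000336). The IP and input libraries of Psma2 did not overlap. Psma7 rose by 0.89 (SE 0.10), Psma5 by 0.75, Psma6 by 0.68 and Psma1 by 0.30 on the log2 scale. The call of Psma1 was lost under 12 of 16 alternatives, among them all 3 other scalings (0.15 with upper-quartile factors), both other filters and 5 of the 6 fits with 1 library left out (adjusted p 0.0620 to 0.105). Psma3 and Psma4 had log2 fold changes of 0.42 (adjusted p 0.0634) and 0.28 (adjusted p 0.0580). Their IP libraries also lay above all input libraries.

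Psma8, the alpha subunit of the testis, was at the edge of detection. It had 0.119, 0.293 and 0.187 CPM in IP and 0.962, 0.0229 and 0.864 in input, a total of 25 counts against 76. Input replicate 2 was as low as the IP libraries, so the groups overlapped. Psma8 did not pass, at a log2 fold change of -1.61 (SE 1.0), while without input replicate 2 it was called at -2.17 (adjusted p 0.0314). Psmb11, the thymus-specific beta subunit, held 7 counts in IP and 26 in input in all, and the filter removed it.

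The beta subunits of the constitutive core moved within a narrow range. All 7 tested genes rose, between 0.66 and 0.91 on the log2 scale, with the groups apart for each of them. This count of 7 was the same under each of the 16 alternatives. Psmb4, a structural beta subunit, was the lowest in fold change, with 302, 297 and 335 CPM in IP and 206, 187 and 197 in input (0.66, SE 0.10). Psmb1, Psmb2 and Psmb3, the other structural subunits, rose by 0.71, 0.77 and 0.71.

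The cutting subunits rose with them. Psmb5, of the chymotrypsin-like site, had 37.2, 30.2 and 46.9 CPM in IP and 25.2, 20.7 and 24.0 in input (log2 fold change 0.71, SE 0.18, adjusted p 0.00901). Psmb6, of the caspase-like site, had 142, 136 and 159 CPM in IP and 84.3, 73.4 and 74.4 in input (0.91, SE 0.11, adjusted p 0.000326). Psmb7, of the trypsin-like site, had 212, 174 and 211 CPM in IP and 121, 115 and 115 in input (0.77, SE 0.11, adjusted p 0.000747). In each of these genes the lowest IP library was above the highest input library. Reads of Psmb5 are the least certain, since 57.1% of the 50-base windows of its transcript also occur in transcripts of other genes, among them Psmb5-ps. For Psmb7 28.1% of the windows also occur in Nek6, which overlaps it on the opposite strand.

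The immune counterparts of the cutting subunits divided: Psmb10 rose, Psmb8 fell and Psmb9 did not pass. Psmb8, which replaces Psmb5, had 0.478, 0.293 and 0.0233 CPM in IP and 0.841, 1.65 and 1.21 in input. These were 20, 12 and 1 counts against 35, 72 and 49, so Psmb8 was scarce in every library, and IP replicate 3 was below the level of 3 counts. The groups did not overlap. The difference of Psmb8 was -2.21 on the log2 scale (SE 0.79, adjusted p 0.0415), and the ratio of summed counts, IP over input, was 0.212 with an exact binomial 95% interval of 0.141 to 0.310 that covers counting error only. Psmb8 passed the low-count filter through its input libraries, where it was high. The call was lost without IP replicate 2 (-2.31, adjusted p 0.0960), input replicate 1 (-2.42, 0.0648), input replicate 2 (-1.94, 0.128) or input replicate 3 (-2.24, 0.0825). It was also lost without IP replicate 2 and input replicate 3 together (-2.34, 0.124). Without IP replicate 3 the value was -1.66, still called at an adjusted p of 0.0374.

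Psmb9, which replaces Psmb6, had 0.956, 1.17 and 0.327 CPM in IP and 1.68, 1.26 and 1.33 in input. All IP libraries were below all input libraries, but IP replicate 3 was far under the other IP libraries. The log2 fold change was -0.80 (SE 0.51, adjusted p 0.216), and it was -0.41 without IP replicate 3. Psmb9 overlaps the start of Tap1, a peptide transporter gene on the opposite strand, by 212 bases, and without a stated strand setting their reads cannot be told apart there.

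Psmb10, which replaces Psmb7, went the other way. It had 66.7, 61.1 and 84.2 CPM in IP and 32.6, 30.7 and 23.1 in input, so the groups were well apart. Its log2 fold change of 1.30 (SE 0.17, adjusted p 0.000487) was the highest of all members, a 2.46-fold difference. It stayed between 1.13 and 1.40 with any 1 library left out. Psmb10 shared 0% of its transcript windows with annotated transcripts of other genes, and no annotated exon of another gene overlapped it.

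Per length, the immune genes differed in level as much as in direction. Counts per kilobase of transcript of Psmb8 were 0.709%, 0.535% and 0.0275% of those of Psmb5 in IP replicates 1, 2 and 3, and 1.84%, 4.41% and 2.78% in the input replicates. Psmb9 stood at 0.396%, 0.508% and 0.121% of Psmb6 in IP and at 1.18%, 1.01% and 1.06% in input. Psmb10 stood at 27.9%, 31.1% and 35.3% of Psmb7 in IP and at 23.9%, 23.7% and 17.8% in input. The highest share of Psmb8 or Psmb9 in any library was thus 4.41%, and the lowest share of Psmb10 was 17.8%. The share of Psmb10 was higher in every IP library than in every input library, and the shares of Psmb8 and Psmb9 were lower. These ratios were not tested. The denominators Psmb5 and Psmb7 are uncertain, since 57.1% and 28.1% of their windows also occur in other transcripts. The 0.0275% of IP replicate 3 rests on 1 count of Psmb8. Most microglial and all endothelial markers were lower in IP, like Psmb8, the endothelial sums being 2.56 to 4.08 CPM in IP and 17.0 to 22.9 in input. Oligodendrocyte and most astrocyte markers were lower too. Median log2 fold changes were -3.7 for microglial, -2.53 for endothelial, -3.59 for oligodendrocyte and -3.24 for astrocyte markers. Some of the microglial and endothelial markers, among them Trem2, Tek and Emcn, passed the low-count filter through their input libraries, as Psmb8 did. Trem2 had 0 counts in IP replicate 3 and Emcn 0 in IP replicate 2, and the other microglial and endothelial markers had counts in all IP libraries. The part of these cells in the fall of Psmb8 was not tested.

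**Figure D2:**
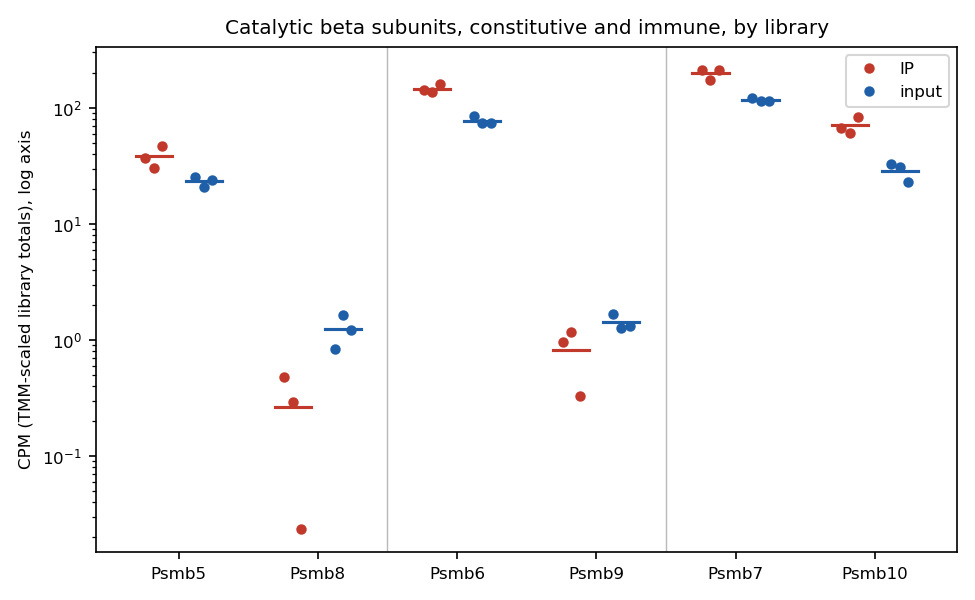
CPM on a log axis for the constitutive cutting subunits Psmb5, Psmb6 and Psmb7, each beside its immune counterpart, with 1 point per library and a line at the mean of the 3 IP (red) or 3 input (blue) libraries. Psmb10 lies higher in IP (61.1 to 84.2) than in input (23.1 to 32.6), while Psmb8 (0.0233 to 0.478) and Psmb9 (0.327 to 1.17) lie lower in IP than in input.

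The start-site regions of these genes are shown because Psmb5 rose while Psmb8, for the same cutting site, was called lower, and because Psmb10 rose most. The call of Psmb8 rests on few counts, was lost under 6 of 15 alternatives, and concerns a gene that passed the filter through input. Each region is the RefSeq window (GRCm38.p6, gene strand) from 250 bases before to 50 after the RefSeq start, and 42 of 50 members had one. The windows of Psmb8 and Psmb9 lie inside the longer gene spans of GENCODE M21, so by that annotation they are not upstream of the first start. Psma8, Psmb1, Psmb2, Psmb7, Psmc3, Psmd3, Psmd7 and Psmg2 had none. Capitals mark matches on either strand to TGACNNNGC, the core of the antioxidant response element that Nfe2l1 and Nfe2l2 bind, to TTCNNNGAA, a gamma-interferon activation motif, to the interferon-stimulated response core (GAAA, any 2 bases, GAAA), or to CCAAT. The windows are chr17:34197945-34198244 (plus strand) for Psmb8, chr17:34187281-34187580 (minus) for Psmb9, chr8:105938343-105938642 (minus) for Psmb10, chr14:54617946-54618245 (minus) for Psmb5, chr11:70525107-70525406 (plus) for Psmb6 and chr11:30771525-30771824 (plus) for Psme4, the activator gene that fell.
Psmb8: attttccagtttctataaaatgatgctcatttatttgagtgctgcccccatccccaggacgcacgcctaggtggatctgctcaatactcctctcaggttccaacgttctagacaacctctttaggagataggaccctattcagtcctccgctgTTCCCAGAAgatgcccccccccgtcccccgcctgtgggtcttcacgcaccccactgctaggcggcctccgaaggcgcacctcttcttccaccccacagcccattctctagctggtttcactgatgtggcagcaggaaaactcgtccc
Psmb9: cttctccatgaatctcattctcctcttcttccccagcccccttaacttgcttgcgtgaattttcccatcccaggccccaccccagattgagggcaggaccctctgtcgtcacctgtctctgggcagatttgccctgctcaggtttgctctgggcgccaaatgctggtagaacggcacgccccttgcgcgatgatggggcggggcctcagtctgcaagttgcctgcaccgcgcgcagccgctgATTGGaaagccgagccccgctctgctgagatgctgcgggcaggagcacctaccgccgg
Psmb10: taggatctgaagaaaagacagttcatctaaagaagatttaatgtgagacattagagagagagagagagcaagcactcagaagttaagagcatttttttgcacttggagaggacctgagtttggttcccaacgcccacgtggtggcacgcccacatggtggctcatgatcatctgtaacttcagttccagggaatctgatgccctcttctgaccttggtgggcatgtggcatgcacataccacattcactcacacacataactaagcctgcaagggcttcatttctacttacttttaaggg
Psmb5: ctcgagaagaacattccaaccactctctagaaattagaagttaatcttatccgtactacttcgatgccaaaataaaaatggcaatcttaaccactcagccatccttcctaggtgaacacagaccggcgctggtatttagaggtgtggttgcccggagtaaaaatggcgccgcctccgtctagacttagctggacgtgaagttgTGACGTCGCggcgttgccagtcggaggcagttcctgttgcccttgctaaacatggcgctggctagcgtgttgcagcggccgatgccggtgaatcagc
Psmb6: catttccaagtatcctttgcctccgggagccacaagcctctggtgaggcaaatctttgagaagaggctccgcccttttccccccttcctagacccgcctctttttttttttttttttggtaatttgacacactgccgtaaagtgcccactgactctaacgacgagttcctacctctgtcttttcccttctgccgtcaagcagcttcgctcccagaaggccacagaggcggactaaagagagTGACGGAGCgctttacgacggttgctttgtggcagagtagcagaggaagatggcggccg
Psme4: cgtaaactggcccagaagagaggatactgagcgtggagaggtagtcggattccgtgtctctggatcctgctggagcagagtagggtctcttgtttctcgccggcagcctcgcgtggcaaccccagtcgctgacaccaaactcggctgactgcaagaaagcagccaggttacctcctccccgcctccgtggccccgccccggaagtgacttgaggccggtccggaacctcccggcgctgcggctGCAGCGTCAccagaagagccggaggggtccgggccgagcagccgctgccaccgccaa
The antioxidant response core was found in the windows of Psmb5, Psmb6 and Psme4, and the gamma-interferon motif in that of Psmb8. Psmb9 held a CCAAT match, and Psmb10 held none of these letters. Of the 42 members with a window 6 held TGACNNNGC (Psmb5, Psmb6, Psmc6, Psmd12, Psme4 and Psmd9), against 14.0% of 27025 genes with a window. The interferon-stimulated core was in 5 members (11.9%) and 3.99% of genes. The members were Psmb3, Psmd4, Psme1, Psmd9 and Psmg4, with no immune beta gene among them. TTCNNNGAA was in 3 members (7.1%) and 9.55% of genes, and CCAAT in 15 members (35.7%) and 41.1% of genes. GGGCGG, the GC box, was in 23 members (54.8%) and 38.2% of genes, and is not capitalised. For the antioxidant response core the share of members was 14.3%, close to that of all genes.

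The immune beta genes sit in different places. Psmb8 (34197721 to 34201454) and Psmb9 (34181987 to 34187764) lie 9956 bases apart on chromosome 17 (GENCODE M21, GRCm38), in the order Psmb9, Tap1, Psmb8 and Tap2. Psmb10 lies on chromosome 8 (105935735 to 105938444). Neither transporter gene passed the test: Tap1 stood at -0.72 (SE 0.70) and Tap2 at 0.05 (SE 0.63) on the log2 scale, with mean levels of 0.398 to 0.656 CPM. Psmb8 itself overlaps Gm20496 on the opposite strand. Psmb8, Psmb9, Tap1 and Tap2 were thus all scarce here, unlike Psmb10.

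The base of the cap is a ring of ATPases that unfold substrates. Of 6 ATPase genes 4 rose and 2 did not pass. Psmc4 was the highest in fold change, with 93.5, 98.7 and 107 CPM in IP and 63.4, 61.8 and 60.6 in input (0.68, SE 0.10, adjusted p 0.000816). The groups of Psmc4 were apart. Psmc6, Psmc1 and Psmc2 rose by 0.64, 0.55 and 0.55. Psmc5 was the lowest, with 332, 285 and 377 CPM in IP and 310, 287 and 233 in input (0.26, SE 0.15, adjusted p 0.168). Its groups overlapped, and it was also the most abundant ATPase gene per length in both groups, at 252 and 210 CPM per kilobase. Psmc3 stood at 0.28 (SE 0.11, adjusted p 0.0597).

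The other cap subunits bind ubiquitin, remove it or hold the lid together. All 11 genes rose, and their groups did not overlap. Psmd3, a lid scaffold subunit, was the highest, with 60.9, 55.9 and 74.6 CPM in IP and 31.4, 30.6 and 27.3 in input (1.10, SE 0.14, adjusted p 0.000374). Psmd8, another lid subunit, rose by 0.97 (SE 0.10), and Psmd4, the ubiquitin receptor, by 0.85 (SE 0.12). Psmd14, the deubiquitinase of the lid, rose by 0.40 (SE 0.11), and Psmd1 and Psmd2, the large scaffolds of the base, by 0.31 and 0.50. Psmd12 shared the lowest log2 value with Psmd1, with 239, 203 and 232 CPM in IP and 187, 182 and 174 in input (0.31, SE 0.11, adjusted p 0.0354). The smaller of these rises were less firm. Psmd1, Psmd6, Psmd12, Psmd13 and Psmd14 passed neither with upper-quartile scaling nor with library totals, nor without input replicate 1 or without input replicate 2, which left 6 of 11 in each case.

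Levels per length spread widely among subunits that occur in equal number in the complex. Per kilobase of the longest RefSeq-matched transcript, the constitutive alpha genes ran from 4.32 (Psma3) to 329 CPM (Psma7) in IP and from 3.23 to 178 in input. The constitutive beta genes ran from 40.2 (Psmb3) to 263 (Psmb4) in IP. The cap genes ran from 20.2 (Psmd13) to 252 (Psmc5) in IP and from 13.8 (Psmd3) to 210 (Psmc5) in input. Psma3 was far below its partners in both groups, also without length scaling (12.3 and 9.18 CPM). The length of the longest transcript may not be that of the transcript expressed here. Of all members 11 share more than 20% of their 50-base transcript windows with other genes, among them Psma3 (22.0%), Psma5 (55.4%), Psmb3 (55.8%) and Psmb5 (57.1%). Reads that align to several places were not counted, so levels of these genes are uncertain.

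**Figure D3:**
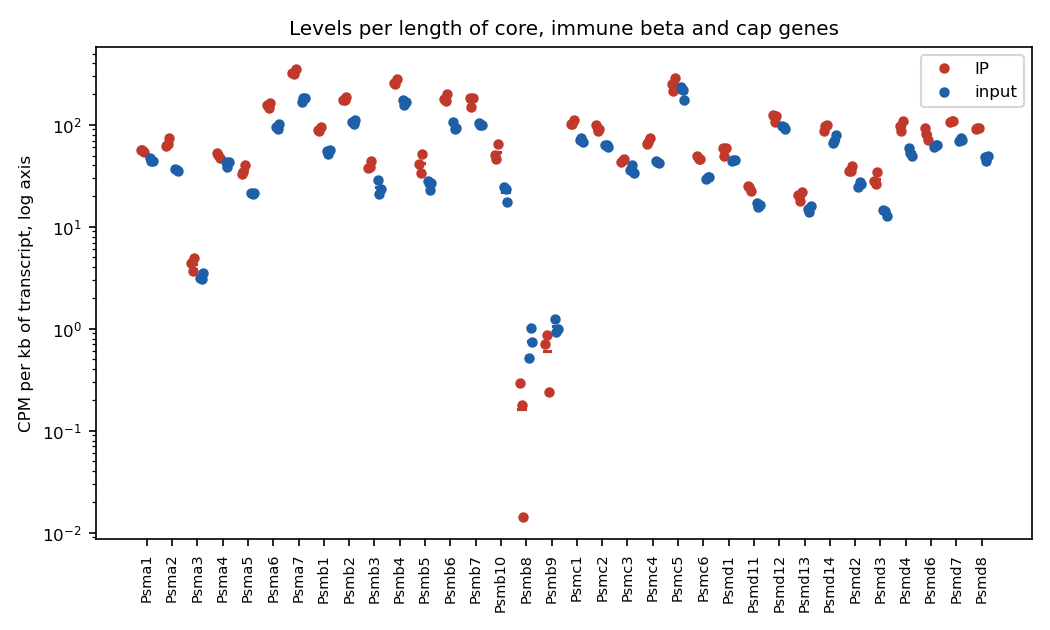
CPM per kilobase of transcript on a log axis for the core, immune beta and cap genes (x axis), with 1 point per library, IP in red and input in blue, and a line at each group mean. Psma8 and Psmb11 are not plotted. Psma3 and the immune genes Psmb8 and Psmb9 lie below all other genes shown, and Psma7 is the highest at 329 in IP.

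The activators open the core without the cap, and they did not move together. Psme1 and Psme2 encode the ring inducible by interferon, and both rose. Psme1 had 53.4, 56.4 and 60.9 CPM in IP and 30.0, 28.2 and 34.9 in input (0.87, SE 0.12, adjusted p 0.000660). Psme2 rose by 0.78 (SE 0.16), from a mean of 9.07 to 15.6 CPM. These neighbours, 5911 bases apart on chromosome 14, were thus both higher in IP, although 59.3% of the windows of Psme2 also occur in other transcripts, mainly of Psme2b. Psme3, the nuclear activator, stood at 0.26 (SE 0.12, adjusted p 0.0882) and was not called, with all IP libraries above all input libraries.

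Psme4, a large activator linked to histone breakdown, fell. It had 40.6, 38.6 and 38.7 CPM in IP and 71.7, 82.4 and 82.0 in input, a 2.0-fold difference. The IP libraries were close to each other and lay below every input library. The log2 fold change was -1.0 (SE 0.11, adjusted p 0.000184), and it stayed between -1.06 and -0.96 with any 1 library left out. Psme4 has the longest transcript of all members, at 6491 bases. Across the 49 tested members, log2 fold change and transcript length had a Spearman correlation of -0.34, and across 14131 tested protein-coding genes it was -0.27. Genes measured in the same libraries are not independent replicates.

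**Figure D4:**
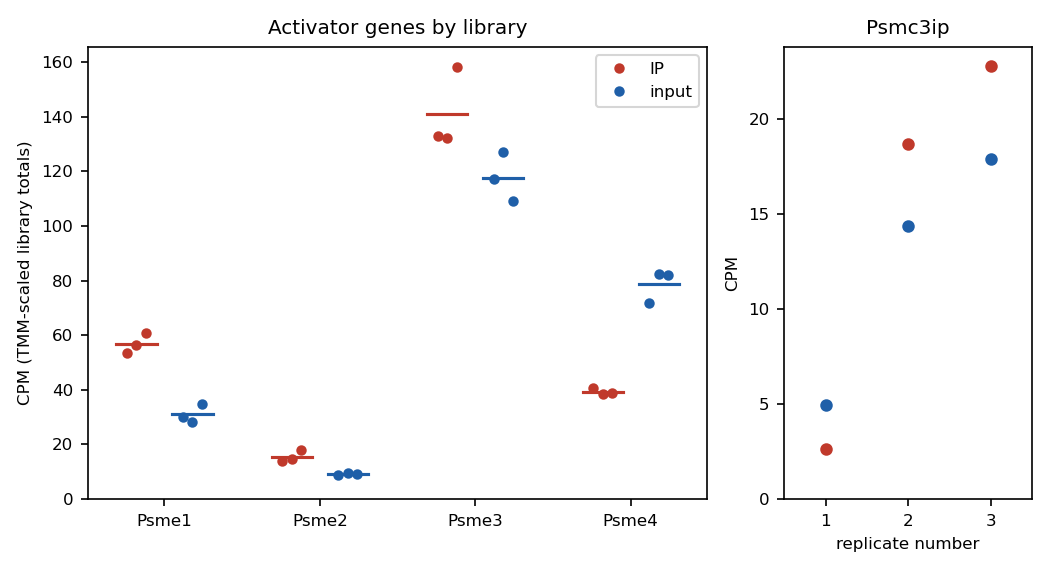
Left, CPM of the 4 activator genes by library, IP in red and input in blue, with lines at group means. Right, CPM of Psmc3ip against replicate number. Psme4 is lower in all IP libraries (38.6 to 40.6) than in input (71.7 to 82.4), and Psmc3ip is low in replicate 1 of both groups.

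Assembly chaperones build the core and the base of the cap and are absent from the finished particle. Of 7 genes 4 rose and 3 did not pass. The Psmg genes encode the chaperones of the alpha ring. Psmg4 was the highest, with 14.0, 13.7 and 13.5 CPM in IP and 6.44, 5.64 and 7.11 in input (1.10, SE 0.16, adjusted p 0.000740). Psmg3 and Psmg1 rose by 0.98 (SE 0.18) and 0.74 (SE 0.15). Psmg2, the partner of Psmg1, was the lowest, with 22.5, 26.5 and 25.0 CPM in IP and 21.0, 23.7 and 19.7 in input (0.20, SE 0.13, adjusted p 0.238). The Psmg2 groups overlapped. Of the chaperones of the cap base, Psmd5 rose by 0.74 (SE 0.11). Psmd9 (0.29, SE 0.13, adjusted p 0.1) and Psmd10 (0.26, SE 0.12, adjusted p 0.0901) did not pass the edgeR test. For both, all IP libraries lay above all input libraries. Psmf1, a regulator that inhibits the core in the test tube, had 49.7, 49.7 and 45.4 CPM in IP and 42.6, 41.5 and 40.2 in input (0.22, SE 0.11, adjusted p 0.107).

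The entries that are not subunits did not pass. Psme2b had 0.884, 0.757 and 0.793 CPM in IP and 0.601, 0.665 and 0.889 in input. Psmc3ip had 2.63, 18.7 and 22.8 CPM in IP and 4.95, 14.4 and 17.9 in input (0.24, SE 0.70, adjusted p 0.789). It was low in replicate 1 of both groups, which share a sequencing lane by their labels, and several-fold higher in the other libraries. With the replicate number as a block its log2 fold change was -0.02. A test of the replicate number itself, added after seeing these values, gave Psmc3ip an adjusted p of 0.0938. That test called 0.0% of tested genes (0 of 17197, with 1807 at an unadjusted p under 0.05 and a smallest adjusted p of 0.0888, edgeR). Mlx, which overlaps Psmc3ip by 385 bases on the opposite strand, had 29.5, 32.4 and 29.3 CPM in IP and 14.9, 17.8 and 19.2 in input and did not share that pattern. The labels do not tie libraries to animals, and lane and animal cannot be told apart.

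Genes that work with the proteasome but fall outside its naming scheme were called upward or not at all. Of 21 tested partners 12 rose (57.1%, against 26.0% of all tested genes) and 9 missed the threshold, and their median log2 fold change was 0.39. With the replicate block Uchl5 (0.46, adjusted p 0.0281) and Ube3c (0.26, adjusted p 0.0473) were called too, which made 14. The most abundant of those that rose were Pomp, the maturation factor of the core (472 ± 55.7 CPM in IP and 204 ± 14.9 in input, 1.21, SE 0.12), Txnl1, a thioredoxin bound to the cap (0.63, SE 0.11), and Ubqln1, a shuttle for ubiquitinated proteins (0.36, SE 0.10). Of 13 regulators of proteasome genes or of those factors 4 rose, 4 fell and 5 were not called (median 0.25). At 30.8% in each direction, these shares were near the 26.0% and 27.9% of all tested genes called higher and lower. Nfe2l1, the factor that raises proteasome genes when proteasomes fail, rose by 0.80 (SE 0.17), from 245 ± 45.0 to 428 ± 69.2 CPM. Its relative Nfe2l2, the oxidative stress factor, fell by 2.65 (SE 0.25), from 24.9 ± 2.26 to 3.95 ± 1.44 CPM. Keap1, which holds Nfe2l2 in check, rose by 0.55 (SE 0.13) and Mafk, a small Maf partner, by 0.57 (SE 0.19). Nfyb and Nfya, subunits of the CCAAT-binding factor, fell by 0.44 (SE 0.11) and 0.91 (SE 0.18). Nfyc, another subunit of that factor, stood at 0.14 (SE 0.16, adjusted p 0.487, edgeR) and was not called.

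Antigen presentation and interferon genes are induced together with the immune subunits in inflamed tissue. Of the 23 tested here 8 fell (34.8%, against 27.9% of all tested genes), 1 rose and 14 were not called, and the median was -0.61. The share that fell was thus near that of all genes, while the share that rose was smaller (4.3% against 26.0%). Bst2 and Irf7, counted among the falls, passed the low-count filter through their input libraries, where they were high. Bst2 had 1, 5 and 5 counts in IP and 27, 32 and 30 in input. Irf7 had 7, 12 and 1 counts in IP and 37, 27 and 36 in input. B2m, the light chain of class I molecules, fell by 0.91 (SE 0.21), from 57.8 ± 13.2 to 30.8 ± 6.06 CPM. Stat2 fell by 0.66 (SE 0.18) and H2-K1 by 1.91 (SE 0.52). H2-T23 rose by 1.48 (SE 0.32), although class I genes are similar in sequence and reads shared between them were not measured. H2-D1, another class I gene, lay the other way at 30.2 ± 11.0 CPM in IP and 15.6 ± 8.05 in input (0.95, SE 0.43, adjusted p 0.0910), as did Tapbp, a factor for peptide loading (0.60, SE 0.27, adjusted p 0.0911). With the replicate number as a block both were called higher, at 1.05 (adjusted p 0.00144) and 0.56 (adjusted p 0.0231, edgeR), which made 3 rises and 8 falls. The class I genes therefore had no common direction.

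Among the genes whose log2 CPM over the 6 libraries was most like that of an immune gene, by Pearson correlation, were Agrn and Fbxl20 (0.994 each) for Psmb8, Tspan11 (0.992) and Manba (0.990) for Psmb9, and Shd (0.999) and Bcat1 (0.999) for Psmb10. These values describe the same 6 libraries and include the difference between IP and input, and Psmb8 rests on few counts.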

How the data were processed

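The authors deposited unnormalized counts for each gene symbol, 1 table per library. Alignment with STAR 2.0.0e to mm10 and counting with HTSeq are named in the submitters' processing notes. For annotation, strand and overlap handling the sources used here give nothing. Each file has 32531 gene entries, and 6 other lines were kept out of totals. Not unique alignments were 43.8 to 44.5% of all lines' counts in IP and 31.8 to 33.0% in input, and ambiguous reads 1.59 to 1.68% and 8.03 to 10.9%. The latter bear on 15 members whose exons overlap another gene. The filter (filterByExpr, minimum count 10, minimum total 15) kept 17197 genes. Counts were TMM-scaled and tested with edgeR 4.0.16 (quasi-likelihood, robust, group only), with Benjamini-Hochberg adjustment over all genes. Alternatives were other scalings and filters, DESeq2 1.42.0, limma-voom (limma 3.58.1), a replicate block, a threshold of 0.01 and leaving out libraries. The script was tested on simulated data. Same-numbered libraries share a lane by their labels, and their residuals after removing group means had correlations of 0.155, 0.074 and 0.051. Replicates correlated at 0.971 to 0.985 and differed beyond counting noise (chi-square per degree of freedom 25.6 to 79.3). All 50 members matched GENCODE M21 by symbol. Values in every library were given for the immune genes and their partners, the highest and lowest tested member of each role, members called against their role and members removed by the filter. The members, lists and tests were chosen with earlier results of these data known. The replicate test of Psmc3ip, Mlx and Nfe2l2 were added after seeing values.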

Additional observations from a re-analysis of the deposited data

How the results depend on the processing

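The 34 members called higher were 28 to 34 under the other tools, scalings, filters and the stricter threshold, and 31 without IP replicate 2 and input replicate 3 together, an alternative chosen after seeing the data. With 1 library left out they were 28 to 33, members called lower 1 to 2 and immune beta genes called lower 0 to 1. The 2 called lower became 1, and the immune beta count of 1 became 0, with at least 1 CPM in 3 libraries (where Psmb8 was no longer tested), with the threshold of 0.01, and without IP replicate 2 and input replicate 3. With the replicate block the counts were 34, 2 and 1, and the block changed no call of a member. Of 780 single-gene values under alternatives 712 kept direction and side of the threshold, 60 lost a call, 3 gained one and 5 changed sign. The sign changes were all of Psmc3ip, at -0.06 with limma-voom, -0.02 with the replicate block, -0.01 without IP replicate 2, -0.21 without IP replicate 3 and -0.13 without input replicate 1, and leaving out 1 library gave -0.21 to 0.75. The immune beta median of -0.80 became 0.18 with at least 1 CPM in 3 libraries, since Psmb8 was removed. The median over all tested genes moved from -0.01 to -0.17 (upper-quartile) and -0.15 (totals only), and the share of calls that were upward was 38.1% and 39.2% against 48.2%. Members called higher were then 28, so those just past the threshold depend on scaling. Psma8, Psmb8, Psmb9, Psmb11 and Psme2b had 7 to 179 counts per group. For Psma8 and Psmb9 the counting intervals of the IP to input ratio lay below 1 (0.201 to 0.523 and 0.443 to 0.731), so spread between libraries, not counting alone, limits these.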
